A study of Drosophila melanogaster with 2 samples.

Results

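Genes for the proteins of the large subunit of the cytosolic ribosome were examined for binding of an Atf6-eGFP fusion in Drosophila melanogaster embryos. The members were the protein-coding genes of the Ensembl BDGP6 annotation whose symbol begins with RpL, which leaves out the mitochondrial mRpL genes. There were 54 of them among 13968 protein-coding genes. The study held 1 group of 2 biological replicates of chromatin immunoprecipitation with sequencing. Each came from whole embryos collected from 0 to 24 h of development, a span that covers nearly all of embryogenesis. All embryos carried an insertion that targets Atf6 and fuses it to enhanced green fluorescent protein, from the strain Atf6-GFP. The fusion was precipitated with an antibody to the fluorescent protein, per the sample descriptions, while the antibody label reads Atf6. A group without the fusion was not analysed here, nor was the control file that the lists were made with, and whole embryos mix all cell types. The number of reads behind the lists is unknown.

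Atf6 belongs to the basic leucine zipper factors. It is held in the membrane of the endoplasmic reticulum and, in vertebrates, is cut free under folding stress to activate chaperone genes. Ribosomal protein genes are among the most strongly transcribed genes of growing cells, and their products are needed in equal amounts. Losing a copy of many of them gives the Minute phenotype in flies, with slow development and thin bristles. In flies their start sites commonly carry a polypyrimidine initiator known as TCT, and the factors Trf2, M1BP and Dref are known to act at their promoters.

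Most RpL genes carried an Atf6-eGFP peak at the promoter. Over both replicates together there was a thresholded list of 5846 peaks, called the main list here, and a shorter one that its name calls conservative. A promoter peak was a peak whose summit lay within 500 bp of any annotated transcription start site (TSS) of the gene. By this rule 40 of 54 RpL genes were bound (74.1%, 95% Wilson interval 61.1 to 83.9), beside 3019 of all 13968 protein-coding genes (21.6%, 20.9 to 22.3). In the conservative list the counts were 37 RpL genes and 19.3% of all genes. In the own lists of replicates 1 and 2 they were 34 RpL genes beside 16.7% of all genes, and 39 RpL genes beside 14.2% of all genes. Bound in the own lists of both replicates were 33 of the 54, beside 11.4% of all genes. Most genes have a single promoter: 74.1% of RpL genes and 74.9% of all protein-coding genes had 1 TSS after sites within 50 bp were joined.

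The signal at these promoters was moderate and none was among the strongest of the genome. Signal is the score that the authors deposited for each peak, on a scale that is not stated, and it is compared here only within 1 list. Across the 40 bound RpL genes it ranged from 89.7 to 506 with a median of 167, beside a median of 124 over all 3019 genes with a promoter peak, whose highest signal was 2416. Of the 40, 31 lay above that median of all bound genes and 14 above its upper quartile of 211, while 0 lay above its 95th percentile of 569. The median RpL gene stood at the 66.1 percentile of bound genes, and the strongest RpL peak ranked 210 in the main list.

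**Figure D1:**
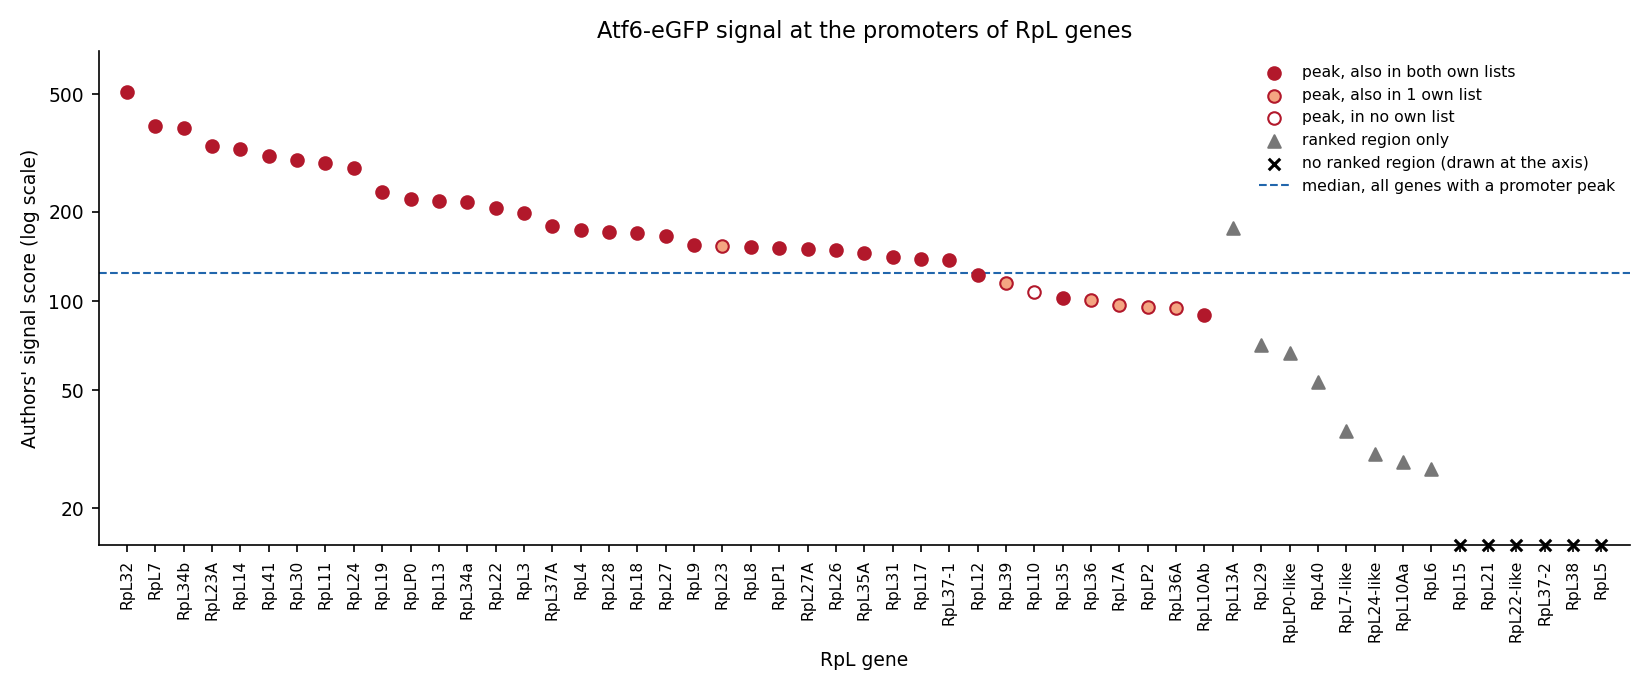
Signal score of the strongest promoter peak of each RpL gene but 1, on a log axis; circles are peaks of the main list, filled by the number of replicates whose own list also had a promoter peak, triangles are ranked regions outside the main list, and crosses are genes with no ranked region. Bound genes run from 506 at RpL32 to 89.7 at RpL10Ab, and RpL13A, at 177, is the triangle above the dashed median of 124 over all bound genes.

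RpL32 stood first. Its product, also known as rp49, is the transcript that fly laboratories often use as a reference for expression. The peak at its promoter had a signal of 506, with a summit 119 bp upstream of the TSS, and a ranked region there had a signal of 278 in replicate 1 (rank 226 of 98003) and 241 in replicate 2 (rank 186 of 86005). RpL7 followed with a signal of 389 and a summit 14 bp downstream of the TSS. Its signals were 201 in replicate 1 (rank 415) and 195 in replicate 2 (rank 287). RpL34b, one of a pair of genes for the protein RpL34, had a signal of 383 with its summit 125 bp upstream. It gave 209 in replicate 1 (rank 391) and 171 in replicate 2 (rank 357). RpL23A, whose product sits at the exit of the tunnel that the new peptide leaves by, had a signal of 333 with its summit 126 bp upstream. Here the signals were 161 in replicate 1 (rank 620) and 174 in replicate 2 (rank 351). In both replicates these 4 genes were thus among the strongest 620 regions.

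The promoters of these 4 genes are shown because they carry the 4 highest signals of the family. Each runs from 150 bases before to 30 bases after the TSS nearest the summit, on the coding strand of the dm6 assembly. RpL32 is on the minus strand at chr3R:30046131-30046311, RpL7 on the plus strand at chr2L:10200854-10201034, RpL34b on the minus strand at chr3R:9401196-9401376 and RpL23A on the minus strand at chr3L:1668624-1668804. Capitals mark CTTT where it starts within 5 bases of the TSS on the coding strand, and, on either strand, the M1BP word GGTCACAC, the Dref word TATCGATA, the word GGTATTT, the E-box CACGTG and the vertebrate ATF6 core TGACGTGG.
RpL32: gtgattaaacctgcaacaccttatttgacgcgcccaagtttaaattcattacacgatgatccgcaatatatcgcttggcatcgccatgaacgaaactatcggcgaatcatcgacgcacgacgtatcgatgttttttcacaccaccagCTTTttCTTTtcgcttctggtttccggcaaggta
RpL7: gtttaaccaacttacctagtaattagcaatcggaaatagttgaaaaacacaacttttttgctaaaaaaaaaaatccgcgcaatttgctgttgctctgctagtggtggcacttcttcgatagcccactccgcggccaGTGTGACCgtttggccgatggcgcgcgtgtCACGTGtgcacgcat
RpL34b: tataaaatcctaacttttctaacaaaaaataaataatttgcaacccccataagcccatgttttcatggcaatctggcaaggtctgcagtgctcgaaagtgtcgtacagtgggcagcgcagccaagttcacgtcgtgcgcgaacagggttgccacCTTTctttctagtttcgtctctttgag
RpL23A: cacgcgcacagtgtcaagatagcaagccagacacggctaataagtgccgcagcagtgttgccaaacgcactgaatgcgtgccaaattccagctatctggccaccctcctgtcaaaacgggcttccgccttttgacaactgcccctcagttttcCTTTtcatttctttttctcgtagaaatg
RpL32, RpL34b and RpL23A hold CTTT at the start site shown. RpL7 holds the M1BP word and an E-box there, and CTTT at another of its start sites. The ATF6 core is in none of the 4.

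Further genes of high signal came next in the order. RpL14 had a signal of 327, with ranks of 615 in replicate 1 and 384 in replicate 2. RpL41, which encodes the smallest ribosomal protein, had 309 (ranks 583 and 457), and RpL30 had 300.1 (ranks 896 and 353). RpL11, whose product forms a complex with RpL5 and 5S ribosomal RNA, had 293 (ranks 851 and 423). RpL24 had 282 (ranks 818 and 489). The rank in replicate 1 stands first in each pair. Each gene named so far for its signal was bound in the own lists of both replicates. Further down, signals ran from 234 at RpL19 to 89.7 at RpL10Ab.

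The stalk and the catalytic core were both represented. RpLP0, RpLP1 and RpLP2 encode the acidic stalk that recruits translation factors to the ribosome, and all were bound, with signals of 221, 151 and 95.7. RpL3, whose product lies close to the site of peptide bond formation, had 199, and RpL4, whose product lines the exit tunnel, had 174. RpL39, which also lines the tunnel, had 114.9. RpL10, whose product joins the subunit late in its assembly, had 108. It was the only one of the 40 bound genes with a promoter peak in neither replicate's own list. A ranked region at its promoter was present in replicate 1, at rank 3692, and absent in replicate 2, and the conservative list had no peak for it. In the 50 kb to either side of RpL10 lay 3 ranked regions, where the median protein-coding gene had 108.

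Summits at RpL promoters tended to lie closer to the start site than those of all bound genes, and most, though not all, were near it. Positions are counted from the TSS of the gene nearest the summit, which is position 0. The median summit of the 40 bound RpL genes lay at -24.5 bp (quartiles -56.25 and 13.25), beside -118 bp over all bound genes (quartiles -203 and -17). Within 50 bp of the TSS were 24 of 40 RpL summits, a share of 60%, beside 16.5% of all bound genes. Upstream lay 26 of the 40 RpL summits (65.0%), beside 77.6% of all bound genes. The farthest upstream was that of RpL23 at -243 bp and the farthest downstream that of RpL35 at 121 bp. Summits downstream by more than 50 bp were also found at RpL26 (70 bp), RpL10 (64 bp), RpL39 (54 bp) and RpLP1 (51 bp).

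Other genes of the translation machinery fell on both sides. RpS genes, for the small subunit, had a median summit position of -6.5 bp, with 19 of 28 summits within 50 bp of the TSS. Genes named as translation initiation or elongation factors had a median of -19 bp, with 11 of 19 within 50 bp. For mitochondrial ribosomal protein genes the medians were -124 bp over 13 mRpL genes and -146 bp over 10 mRpS genes, with 0 summits within 50 bp of a TSS in either list. Ribosome biogenesis genes had a median of -171.5 bp, with 0 of 8 within 50 bp. These values are set side by side and were not tested against each other.

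**Figure D2:**
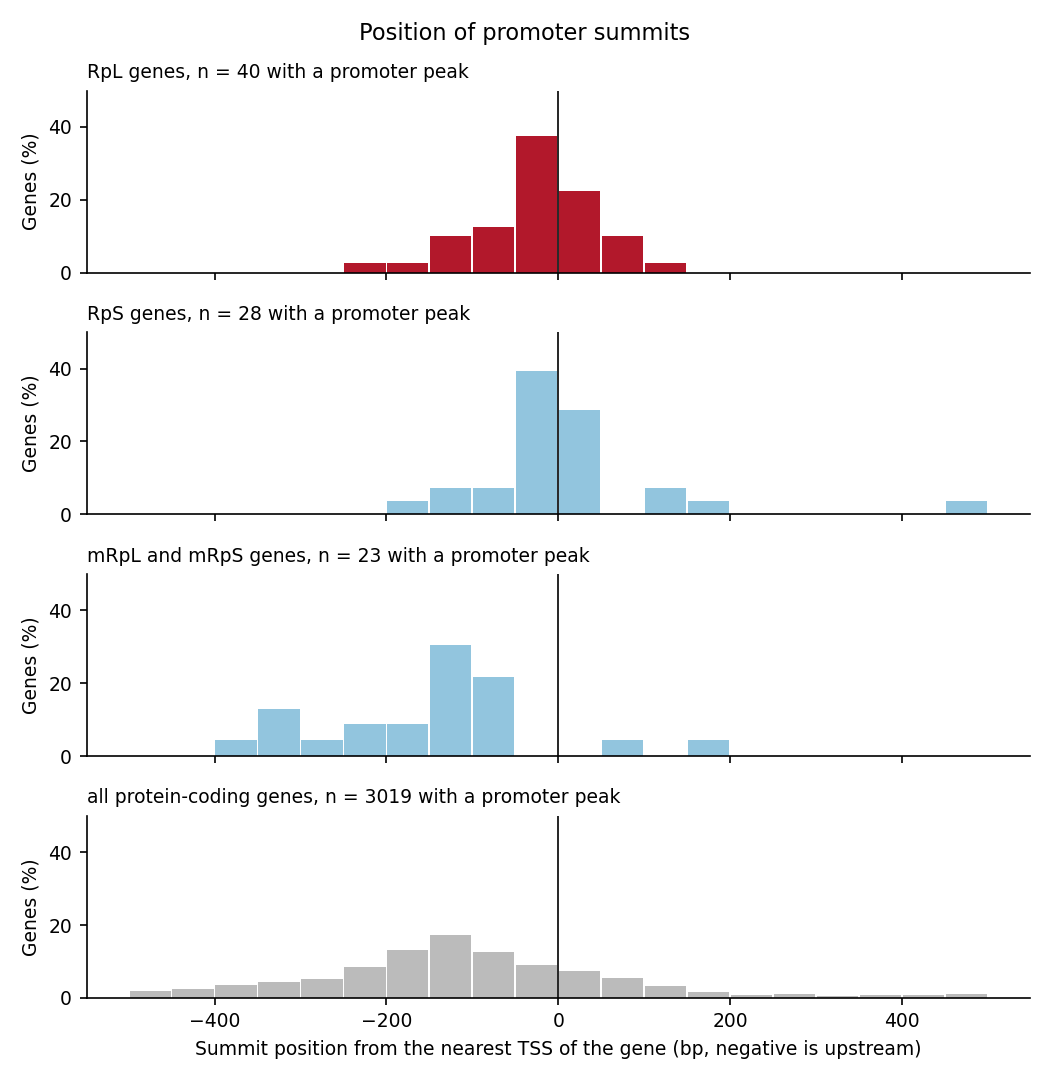
Share of genes by position of the strongest promoter summit in bins of 50 bp around the TSS, for RpL genes, RpS genes, mRpL and mRpS genes together, and all protein-coding genes with a promoter peak. Of the RpL summits 60% lie within 50 bp of the TSS, beside 16.5% over all bound genes, whose median is at -118 bp.

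Summits of RpL genes also held more G and C than most promoter summits. Within 50 bp of the summit the median was 44.1% G or C over the 40 RpL genes, with a range from 26.7% at RpL34a and RpL26 to 60.4% at RpL7, beside 34.7% over all bound genes. The same measure was 49.5% at RpS genes, 45.5% at translation factor genes, 32.7% at mRpL genes and 28.2% at mRpS genes. Among these lists, the ones with summits near the TSS were thus the ones richer in G and C. The 3 bound genes for factors of ribosomal protein gene promoters went the other way, with 46.5% and 0 summits within 50 bp of a TSS. The part of base composition in the calls was not tested.

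The share of bound genes was similar for the small subunit and lower for the mitochondrial, translation factor, biogenesis and RNA polymerase I lists. A promoter peak was found at 28 of 39 RpS genes (71.8%, Wilson interval 56.2 to 83.5), at 13 of 47 mRpL genes (27.7%), at 10 of 26 mRpS genes (38.5%), at 19 of 52 translation factor genes (36.5%) and at 8 of 18 ribosome biogenesis genes (44.4%). Of 7 genes for RNA polymerase I and its factor Tif-IA, which transcribe ribosomal RNA, 0 were bound (upper Wilson bound 35.4%). Signals of bound RpS genes ran from 72.0 to 366 around a median of 136. The lists differ in size and were not tested against the RpL genes. The genes of 3 of the 4 factors listed for ribosomal protein gene promoters were bound: Dref (218), M1BP (109) and Trf2 (102). Myc was not.

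**Figure D3:**
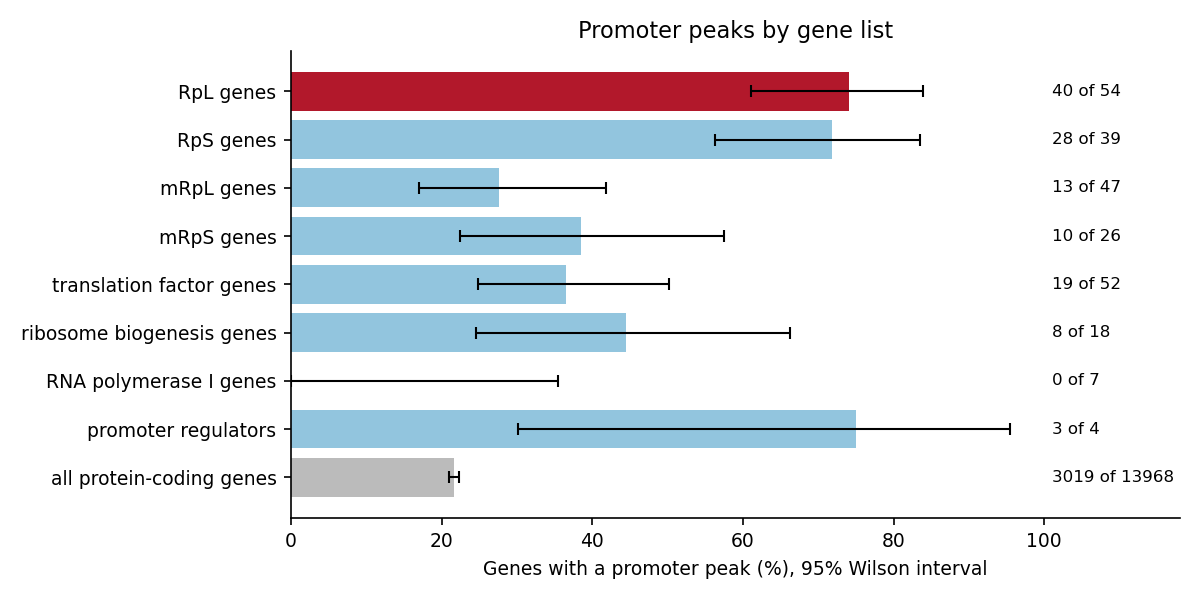
Percent of genes with a promoter peak in the main list, by gene list, with 95% Wilson intervals that cover counting error only and the counts at the right. RpL genes (40 of 54) and RpS genes (28 of 39) stand at 74.1% and 71.8%, beside 21.6% of all protein-coding genes.

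The peak of RpL13 was also that of Dref. RpL13 and Dref are transcribed away from each other, and a summit with a signal of 218 lay 19 bp upstream of RpL13 and 65 bp upstream of Dref. In all, 18 of the 40 RpL peaks (45.0%) lay within 500 bp of a TSS of another protein-coding gene, beside 49.5% of all bound genes. In 16 of these 18 the RpL start site was at least as near to the summit as the other one. An exception was RpL41, where the summit lay 100 bp upstream of RpL41 and 82 bp upstream of the sodium channel gene NaCP60E. Other neighbours that shared a peak were Ripalpha with RpL7, Nelf-E with RpL14, eIF1 with RpL28 and Mybbp1A with RpL36. Their summits were nearer to the RpL gene, at 14, -17, -94 and -22 bp, than to the neighbour, at -44, -110, -287 and -268 bp. At RpL34a and RpL34b the distances were more alike. The RpL34a summit lay at -112 bp, beside -117 bp from Trmt61. The RpL34b summit, 125 bp upstream of its TSS, lay at -144 bp from CG8132. The strongest RpL peak was shared too: the RpL32 summit, 119 bp upstream of its TSS, lay at -190 bp from CG7943. Which gene a shared peak belongs to was not tested.

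The promoters of 7 bound genes, those of RpL7, RpL41, RpL4, RpL26, RpL31, RpL17 and RpL12, held 2 summits (17.5% of bound RpL genes, beside 14.8% of all bound genes with 2 or more). In 6 of them the summits were 199 to 208 bp apart and the second had a signal from 4.35 to 37.4. Whether the second summit of these 6 was a separate site of binding was not tested. At RpL17, which has 3 separate start sites, they were 802 bp apart with signals of 139 and 55.3. Inside the RpL genes, beyond 500 bp from a TSS, there were 0 peaks of the main list. Many RpL genes are short and leave little sequence there, and the same count was not made over all genes. Small nucleolar RNA genes, which often lie in introns of ribosomal protein genes, were annotated inside 16 RpL genes, 13 of them bound with a median signal of 174. Of the 38 RpL genes without one, 27 were bound, with a median signal of 155.

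Bound RpL genes were found on every arm that holds any. All 6 on X were bound, as were 9 of 10 on 3L, 9 of 13 on 2L, 9 of 14 on 2R and 7 of 11 on 3R, beside 19.6, 24.2, 21.4, 21.8 and 21.3% of all genes on those arms. The X-linked genes RpL22, RpL17, RpL37-1, RpL35, RpL36 and RpL7A had signals from 97.3 to 206 with a median of 120.03, the lowest of the 5 arms. On 3R the median was 199. Over all bound genes the median was 115.2 on X and 119 on 3R.

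Both replicates ranked the RpL promoters in a similar order. A ranked region with its summit at the promoter was present in both replicates for 46 of the 54 genes, and Spearman's rho between their ranks was 0.782 across these genes (0.688 across the 39 that were bound). The genes share the same pair of libraries, so the coefficient is a description. The strongest promoter region was taken in each replicate, and the regions compared need not overlap, as at RpL6. Among bound genes the largest ratio of ranks was that of RpL39, which ranked 8527 in replicate 1 and 1230 in replicate 2. RpL27 ranked 3739 in replicate 1 and 876 in replicate 2, whereas RpL26 ranked higher in replicate 1 (1479) than in replicate 2 (2916). Of the 40 bound genes, 33 were bound in both own lists. RpL36 alone was bound only in that of replicate 1, and RpL23, RpL39, RpL7A, RpLP2 and RpL36A only in that of replicate 2. Of these 6, RpL23 alone had a signal above the median of all bound genes, at 154.

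**Figure D4:**
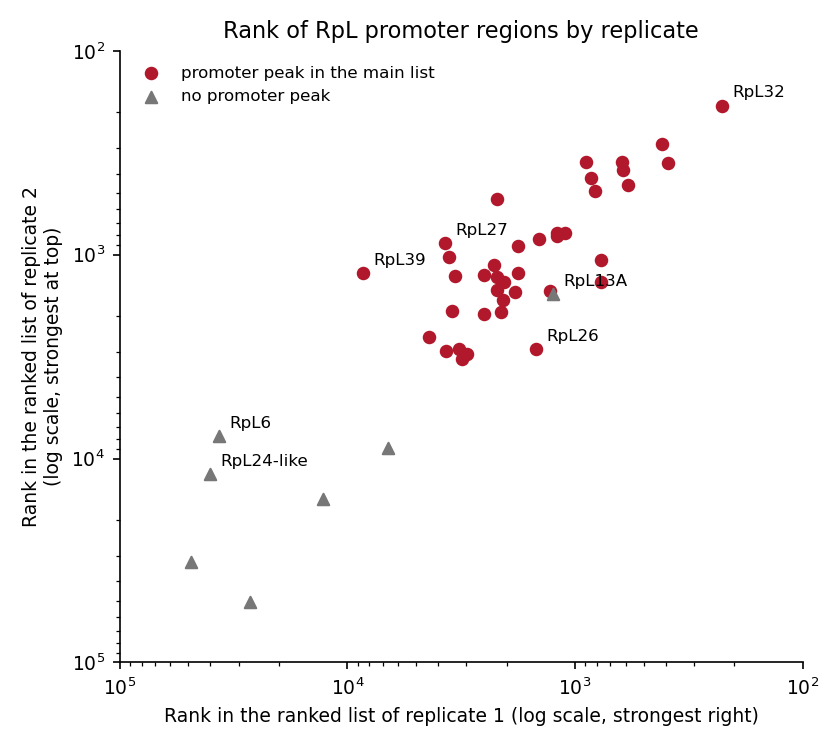
Rank of the strongest promoter region of each RpL gene in the ranked list of replicate 1 (x axis) and of replicate 2 (y axis), both on log axes with the strongest at the upper right; circles are genes with a promoter peak in the main list and triangles are genes without. RpL32 (ranks 226 and 186) is at the upper right, RpL39 (8527 and 1230) lies off the diagonal, and RpL13A lies among the bound genes.

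The 14 RpL genes without a promoter peak fell into separate kinds. At RpL13A the long ranked list of both replicates held a region of signal 177, with its summit 99 bp upstream of the TSS. Its irreproducible discovery rate (IDR), the authors' measure of how poorly a region repeats, was 5.32e-05, far under the 0.01 that all regions of the main list met. It ranked 1245 in replicate 1 and 1567 in replicate 2, yet no thresholded list had a promoter peak for it. It was 1 of 165 ranked regions that met the threshold and were not in the main list, for a reason that is not stated. RpL29 had a region of signal 71.4 with its summit 8 bp downstream of the TSS and an IDR of 0.0489. Only replicate 2 had a ranked region there, at rank 2898, and it was in the own list of replicate 2.

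A further 4 genes had no ranked region at all in the 50 kb to either side, where the median protein-coding gene had 108. They were RpL5 on 2L (22532279 to 22536884), RpL21 on 2L (22247111 to 22247875), RpL38 on 2R (4515388 to 4516458) and RpL15 on 3L (27267255 to 27268445), which lie towards the centromere ends of their arms. The nearest ranked summit was 55232 bp from RpL5, 78809 bp from RpL21, 85141 bp from RpL38 and 199743 bp from RpL15. Whether a peak could have been called in these stretches was not tested.

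Paralogues and relatives with other roles made up most of the rest. RpL7-like, RpL24-like and RpLP0-like encode relatives of yeast proteins that help to assemble the large subunit and are not part of the mature ribosome. Their best regions had signals of 36.5, 30.5 and 66.7 and IDRs of 0.645, 0.564 and 0.512. The core genes they resemble were bound, with signals of 389 at RpL7, 282 at RpL24 and 221 at RpLP0. RpL22-like, a paralogue known from the male germ line, had no ranked region within 500 bp, whereas RpL22 had a signal of 206. RpL37-2 had none either, and RpL37-1 had a signal of 138. RpL10Aa had a region of signal 28.7 (IDR 0.803), while RpL10Ab was bound with 89.7, the lowest of the 40. RpL34a and RpL34b were the exception, both bound, with signals of 216 and 383. Both of these peaks were shared with a neighbouring gene at a similar distance, as given above. Of the 4 genes named as like another, 0 were bound, a count too small to set apart from the 21.6% of all genes.

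RpL40 and RpL6, both part of the mature subunit, had weak regions away from the TSS. RpL40, whose product is made as a fusion to ubiquitin, had a signal of 53.5 at 326 bp downstream (IDR 0.641). RpL6 had 27.1 at -317 bp (IDR 0.589). In replicate 1 the strongest RpL6 region had its summit at 179 bp and ranked 36522. In replicate 2 it was a different region, with its summit at -301 bp and rank 7775, and the regions did not overlap. RpL40 ranked 12762 in replicate 1 and 15802 in replicate 2.

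The polypyrimidine start was common to bound and unbound RpL genes. CTTT, the core of the TCT initiator, began within 5 bases of an annotated TSS on the coding strand in 33 of 54 RpL genes (61.1%), beside 8.06% of all protein-coding genes. It was found in 25 of 40 bound RpL genes (62.5%) and in 8 of the 14 others. Those 8 include RpL5, RpL21 and RpL38, which had no ranked region within 50 kb. They also include RpL13A, whose region met the IDR threshold, and RpL29, which was in the own list of replicate 2. Not all of them are thus clear cases of a promoter without binding. RpS genes had it in 25 of 39 (64.1%). With only the outermost TSS of each gene the counts were 18 of 54 RpL genes, beside 5.63% of all genes. To let the starts be compared, 8 bound genes of high signal with this core at the TSS nearest the summit are shown from 15 bases before to 15 bases after the TSS nearest the summit, so that base 16 is the TSS. CTTT within the 5 bases is in capitals. RpL14, RpLP0, RpL3, RpL37A and RpL4 lie on the plus strand and RpL32, RpL34b and RpL23A on the minus strand.
RpL32: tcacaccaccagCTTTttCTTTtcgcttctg
RpL34b: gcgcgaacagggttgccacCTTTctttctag
RpL23A: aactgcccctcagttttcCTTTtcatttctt
RpL14: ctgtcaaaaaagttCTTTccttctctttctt
RpLP0: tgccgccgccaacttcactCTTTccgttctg
RpL3: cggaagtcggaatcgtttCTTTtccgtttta
RpL37A: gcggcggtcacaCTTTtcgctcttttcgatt
RpL4: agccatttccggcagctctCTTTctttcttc
A CTTT begins before the TSS in RpL32, RpL14 and RpL37A and after it in RpL34b, RpL23A, RpLP0, RpL3 and RpL4, while RpL32 has a second one after it. The presence of the core did not go with the summit position among bound RpL genes, where 60% of summits lay within 50 bp of the TSS both with the core (15 of 25) and without it (9 of 15). Median signals were 180 with the core and 141 without it.

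Words of known promoter factors were more frequent at RpL promoters than at promoters in general, and most of these words were so at RpS promoters too. The searched window ran from 250 bases before to 50 bases after every annotated TSS, on both strands. TATCGATA, the site of Dref, was present at 15 of 54 RpL genes (27.8%) beside 10.2% of all genes, and GGTCACAC, the site of M1BP, at 10 (18.5%) beside 8.70%. GGTATTT was present at 15 RpL genes (27.8%) beside 11.6% of all genes. The E-box CACGTG, which Myc and related factors bind, was present at 13 RpL genes (24.1%) beside 5.33% of all genes, and at 3 of 39 RpS genes. RpS genes carried the 3 words before it at shares similar to those of RpL genes: TATCGATA at 13 (33.3%), GGTATTT at 13 (33.3%) and GGTCACAC at 6 (15.4%). TATAAA, part of the TATA box, was present at 27 RpL genes (50%) beside 51.3% of all genes. CACGTG holds the letters ACGT, as do TGACGTGG and TGACGT, so these matches can overlap.

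Letters of the vertebrate ATF6 site gave no single picture. TGACGTGG was present at 0 of 54 RpL genes, beside 0.523% of all genes. TGACGT was present at 4 RpL genes (7.41%), namely RpL5, RpL10, RpL13A and RpL35, beside 9.11% of all genes. Both shares are near those of all genes. The shorter ACGT, which these words and the E-box hold, was present at 37 RpL genes (68.5%) beside 54.9% of all genes. Among bound genes alone its shares were near each other, at 65% of RpL genes and 64.2% of all genes. Within 50 bp of the 40 RpL summits TGACGT was present at 0, beside 2.25% of all bound genes, and ACGT at 12 (30%), beside 18.4%. In the same windows TATCGATA lay at 8 RpL summits, which is 20% beside 2.78% of all bound genes. GGTCACAC lay at 6 (15% beside 1.36%), CACGTG at 3 (7.5% beside 1.13%) and TATAAA at 4 (10% beside 19.6%). RpL summits lie nearer the TSS than those of all bound genes, so these windows differ in position, and the part of that was not tested. Over the whole promoter window TATCGATA was present at 30% of bound RpL genes beside 14.6% of all bound genes. The shares for GGTCACAC were 20% and 13.1%. These matches are descriptions of the letters and say nothing of which factor was bound.

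**Figure D5:**
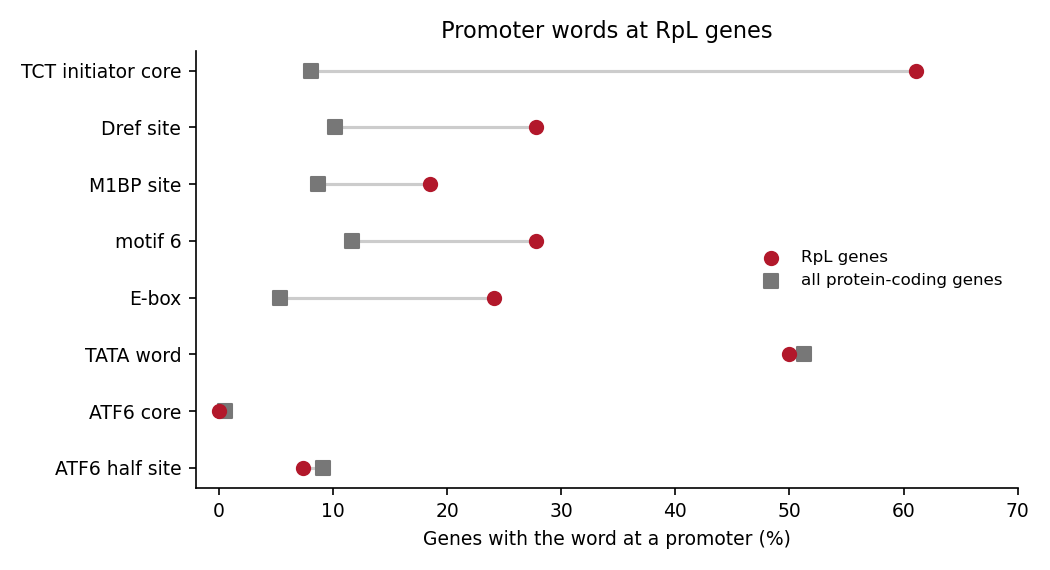
Percent of genes with each searched word at a promoter, with RpL genes as circles and all protein-coding genes as squares. The largest gap is that of the TCT initiator core, at 61.1% of RpL genes beside 8.06% of all genes, and the ATF6 core is at 0% of RpL genes beside 0.523% of all genes.

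Unbound members carried such words too. The 3 shown here are unbound members with a ranked region at the promoter, and not the 3 of highest ranked signal. They cover the same span as above, with the same capitals. The ranked summits of RpL40, at 326 bp, and of RpL7-like, at -251 bp, lie outside the bases shown. RpL13A is on the plus strand at chr3R:5624324-5624504, RpL40 on the plus strand at chr2L:4227549-4227729 and RpL7-like on the plus strand at chr2L:12056176-12056356.
RpL13A: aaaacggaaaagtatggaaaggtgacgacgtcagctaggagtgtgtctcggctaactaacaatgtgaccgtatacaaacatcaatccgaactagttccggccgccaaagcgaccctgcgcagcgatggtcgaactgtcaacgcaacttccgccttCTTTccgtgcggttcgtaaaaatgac
RpL40: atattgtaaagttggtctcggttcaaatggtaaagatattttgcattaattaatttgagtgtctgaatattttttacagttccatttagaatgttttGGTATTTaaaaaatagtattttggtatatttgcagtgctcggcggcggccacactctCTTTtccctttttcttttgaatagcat
RpL7-like: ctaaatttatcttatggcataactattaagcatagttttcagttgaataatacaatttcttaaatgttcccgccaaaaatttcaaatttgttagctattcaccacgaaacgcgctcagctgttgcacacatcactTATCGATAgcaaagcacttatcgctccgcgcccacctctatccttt
RpL13A and RpL40 hold CTTT at the start site, as most bound members do, and RpL40 also holds GGTATTT. RpL7-like holds the Dref word and, at the TSS shown, no CTTT within 5 bases.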

How the data were processed

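The deposited files used were peak lists on dm6, per the labels, for each replicate and for both together. Each pair held a long ranked list and a thresholded list, derived from alignments and a control file per the text files deposited beside them. Which aligner and which peak caller they used is not given in the sources used here. The signal is a score per peak that the authors deposited. The −log10 of the IDR in the ranked lists is also as deposited by the authors. Summits and signals were taken from the lists, start sites from the Ensembl annotation BDGP6 version 54 and sequence from the RefSeq copy of the same assembly, release 6. Every arm's last region ended within the arm.

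Where a gene had several promoter summits, the strongest was used. No test was made: shares are given with 95% Wilson intervals and set beside all protein-coding genes, which cover counting error only. Text values per gene follow a rule: the 10 bound members of highest signal, every member without a peak, and all paralogue sets. The values of 1 member are not reported here, but it is in the counts and medians. Other bound genes were named for a position, rank or neighbour after their values were seen. Members, gene lists, searched words and alternatives were chosen with earlier results of these data known. The assignment of summits to genes was checked on simulated peaks. Computation was in Python 3.11.15 with pandas 2.3.3 and numpy 2.4.6, intervals used SciPy 1.17.1, and plots matplotlib 3.10.9.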

Additional observations from a re-analysis of the deposited data

How the results depend on the processing

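The count of bound RpL genes stayed between 34 and 41 in 10 alternatives, beside 40 in the main list: 37 in the conservative list, 35 among peaks in the upper part of the main list split at its median signal, 39 and 34 without replicate 1 and without replicate 2, 40 for each of 250 bp, 1000 bp and the outermost TSS, 39 where the peak had to cover a TSS, and 38 where a summit served the nearest TSS alone. Adding every ranked region with an IDR of 0.01 or lower, an alternative chosen after seeing the data, gave 41, the added gene being RpL13A. Bound in all 11 settings were 30 genes, and 12 in none. The share of all protein-coding genes ranged from 13.6 to 25.4%. The median signal, 167 in the main list, was 174.3 in the upper part of the list, 169.3 where a peak covered a TSS, 160.03 with the nearest TSS alone and 169.3 with the added regions. The median percentile of 66.1 was counted anew among the genes bound in each setting. In the upper part of the list it was 48.6. Leaving out the weaker peaks lowers the percentile of every gene that stays and raises the median signal, so these 2 shifts follow from the cut itself. The percentile was less firm in other settings: it was 76.2 where a peak covered a TSS, and 56.6 and 52.3 without replicate 1 and without replicate 2. The median position ranged from -21 to -37.5 bp over the lists of single replicates. Peaks in both own lists numbered 33, and 30 with an overlap of at least 50% of the peak. The cause of the other differences was not tested. The count of genes with the TCT core fell to 18, against 33, with the outermost TSS alone. No paired analysis was possible because there was 1 group. Intervals cover counting error only, and the reads behind the lists are unknown.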

Other observations

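Among bound RpL genes, the 8 with the E-box CACGTG at a promoter (RpL7, RpL7A, RpL11, RpL24, RpL28, RpL32, RpL34b and RpL35) had a median signal of 288, beside 154 over the 32 without it. Medians with and without other words were 200 and 154 for GGTCACAC, 157 and 172 for TATCGATA, and 151 and 173 for GGTATTT. The E-box was no more common among bound genes, at 8 of 40, than among the others, at 5 of 14. The word was also present at 13 of 18 ribosome biogenesis genes (72.2%) and at 4 of 7 RNA polymerase I genes. Peak width was 136 bp at RpL14, 140 bp at RpL30, 194 bp at RpL23A, 241 bp at RpL7 and 349 bp at RpL32, and 396 bp at every other bound RpL gene, RpL34b and RpL41 included. Over all protein-coding genes, those with the TCT core were bound at 331 of 1126 (29.4%), beside 2688 of 12842 without it (20.9%), and 23.9% of their summits lay within 50 bp of the TSS, beside 15.6% without the core.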
